A study of Mus musculus with 10 samples.

Results

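This account covers 9 genes of the mouse oocyte, among 18493 in the deposited table: the zona pellucida genes Zp1, Zp2 and Zp3, the growth factor genes Gdf9, Bmp15 and Fgf8, the oocyte-secreted protein genes Oosp1 and Oosp2, and the receptor gene Kit. They were chosen by function, with earlier results of these data known, and taken by gene symbol, and each symbol matched 1 row of the table. The samples were oocytes of the mouse ovary with 3 libraries from young, 3 from aged and 4 from spermidine oocytes, sequenced after oligo dT priming and full-length amplification of cDNA by the SMART-seq2 method. The labels call the young group a control, the aged group a treatment and the spermidine group a rescue. The study's design text sets spermidine, a polyamine, against the quality of aged oocytes. Strain, age in weeks, dose, route and the number of animals or oocytes behind a library are not given in the sources used here. The p-values therefore cover only how far these libraries scatter, and part of that scatter may be technical.

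The zona pellucida is the glycoprotein coat that surrounds the growing oocyte, binds sperm and hardens after fertilization. In the mouse it is built of the proteins ZP1, ZP2 and ZP3, made by the oocyte itself. Growth differentiation factor 9 and bone morphogenetic protein 15 are secreted by the oocyte as members of the TGF-beta family and act on granulosa and cumulus cells through BMP and TGF-beta type receptors and SMAD proteins. Fibroblast growth factor 8 is another oocyte signal to cumulus cells. KIT works in the reverse direction: the oocyte carries this receptor tyrosine kinase and granulosa cells supply its ligand. OOSP1 and OOSP2 are secreted oocyte proteins of 1 family, and both genes lie on chromosome 19.

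Promoter windows from 250 bases before to 50 after the start of transcription were found for 5 of the 9 genes in a RefSeq table of the build GRCm38.p6. The other 4, Zp1, Zp2, Gdf9 and Fgf8, are named only. The deposited files name mm9 instead, so these windows show sequence and were not joined to the counts by position. The windows shown are those of Zp3, Bmp15, Oosp1 and Oosp2, which encode coat or secreted proteins of the oocyte. The pair Oosp1 and Oosp2 is compared further below. FIGLA, a basic helix-loop-helix factor of oocytes, acts on zona genes through the E-box CANNTG, and NOBOX, an oocyte homeobox factor, binds TAATTG and TAGTTG. Capitals mark each match of these 3 motifs on either strand, and no 2 matches overlapped in these windows.
Zp3 (chr5:135979855-135980154, plus strand): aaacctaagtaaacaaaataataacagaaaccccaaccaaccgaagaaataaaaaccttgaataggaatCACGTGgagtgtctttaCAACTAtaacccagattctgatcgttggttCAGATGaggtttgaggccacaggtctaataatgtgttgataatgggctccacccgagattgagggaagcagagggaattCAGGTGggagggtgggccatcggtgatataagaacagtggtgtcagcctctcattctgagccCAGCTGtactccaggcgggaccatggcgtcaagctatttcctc
Bmp15 (chrX:6320675-6320974, minus strand): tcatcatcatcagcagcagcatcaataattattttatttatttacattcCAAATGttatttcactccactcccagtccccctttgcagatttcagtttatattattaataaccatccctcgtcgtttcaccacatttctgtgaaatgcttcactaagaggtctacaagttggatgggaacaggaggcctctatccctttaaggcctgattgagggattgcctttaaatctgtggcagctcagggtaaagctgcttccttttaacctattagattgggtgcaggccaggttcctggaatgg
Oosp1 (chr19:11691002-11691301, minus strand): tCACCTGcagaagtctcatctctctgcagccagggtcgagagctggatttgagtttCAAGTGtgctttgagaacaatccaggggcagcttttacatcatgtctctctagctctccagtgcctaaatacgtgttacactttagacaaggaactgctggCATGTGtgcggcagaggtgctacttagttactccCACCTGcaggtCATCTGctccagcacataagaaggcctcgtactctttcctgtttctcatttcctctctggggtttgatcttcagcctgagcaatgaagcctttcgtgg
Oosp2 (chr19:11660510-11660809, minus strand): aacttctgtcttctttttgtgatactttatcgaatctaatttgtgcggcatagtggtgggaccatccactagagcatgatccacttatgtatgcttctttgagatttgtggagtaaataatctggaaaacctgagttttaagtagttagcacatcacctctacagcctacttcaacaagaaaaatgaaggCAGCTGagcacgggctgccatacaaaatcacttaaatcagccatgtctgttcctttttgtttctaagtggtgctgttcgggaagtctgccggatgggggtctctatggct

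The Zp3 window held 4 E-boxes, at positions -181, -134, -55 and 8 relative to the start site, and 1 match of TAGTTG on the opposite strand, printed as CAACTA. The Oosp1 window held 5 E-boxes, while those of Oosp2 and Bmp15 held 1 each. Each of the pair of Kit windows, which are not shown, also held 1. An E-box was present in 72.3% of 32851 windows of the same length. At least 4 were present in 6.49% of these windows and at least 5 in 2.10%. TAATTG was found in 8.0% and TAGTTG in 6.59% of all windows, and TAATTG in none of the 5. A match describes letters only, and binding was not measured.

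Library totals lay between 24222185 and 28730790 counts. The label oocyte was checked with lists of markers: all 13 oocyte identity markers in the table had counts in every library, and their summed level was 17171 to 29665 CPM (counts scaled to a common library size, with TMM factors). The 15 granulosa and cumulus markers summed to 21.1 to 31.3 CPM, of which the aromatase gene Cyp19a1 made up 8.81 to 16.7 CPM, while Foxl2, Amh, Has2 and Ptx3 each stayed at 0.203 CPM or lower. Others of the list had more: in its highest library Nr5a2 reached 8.15, Gja1 5.08, Inha 3.60, Kitl 3.17 and Fshr 2.50 CPM. Of the 7 granulosa and cumulus markers tested, 2 were called higher in aged than in young oocytes and 0 lower. Over all genes tested, 9.71% were called higher and 8.06% lower. The follicle-stimulating hormone receptor gene Fshr had means of 1.68 CPM in aged and 0.473 CPM in young oocytes (edgeR adjusted p = 0.0125), and the nuclear receptor gene Nr5a2 6.77 and 4.44 CPM (0.0481, a call lost in 16 of 20 alternatives). Nr5a2 was also higher with spermidine, at 7.61 CPM, than in young oocytes (edgeR adjusted p = 0.0297). Of the 7 markers, 3 had a log2 fold change above 0 with age, and the median was -0.43 against 0.10 over all genes. Gja1 ran lower without a call, from 1.18 to 2.21 CPM in young to 0.303 to 0.734 CPM in aged libraries. So did Hsd17b1, at 0.431 to 0.921 CPM in young and 0 to 0.303 CPM in aged libraries. Kitl, the gene of the KIT ligand, ran higher without a call, from 0.921 to 1.38 CPM in young to 1.43 to 3.17 CPM in aged libraries. With spermidine, Gja1 was at 0.460 to 5.08 CPM, Hsd17b1 at 0.115 to 1.09 CPM and Kitl at 1.23 to 2.23 CPM. With age, 6 of the 7 markers had an unadjusted edgeR p under 0.05, and DESeq2 called 4. Theca and stroma markers summed to 1.80 to 3.84 CPM. Blood and immune markers summed to 36.5 and 17.1 CPM in the young replicates 1 and 3 and to 13.5 CPM in the first aged library, against at most 1.34 CPM in the other 7 libraries. Across genes, the deviation of a library correlated with transcript length at 0.399 (aged replicate 1) and 0.144 (spermidine replicate 1), while the other 8 libraries ran from -0.196 to 0.0593. Deviations correlated with GC content between -0.245 (young replicate 3) and 0.367 (aged replicate 3). Genes are not independent replicates, and the part of these trends in the results below was not tested except where a value is given.

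All 9 genes passed the filter on low counts, and all of their deposited values were whole numbers in all 10 libraries. Together they took 2.49% ± 0.106 (SD, n = 3) of all counts in young oocytes, 2.86% ± 0.190 (SD, n = 3) in aged oocytes and 2.602% ± 0.552 (SD, n = 4) with spermidine. Gdf9 had the largest share and ranked 9 among all genes by mean CPM. It took 1.10% ± 0.169 (SD, n = 3) of counts in young oocytes, while Zp3 took 0.456% ± 0.0470 (SD, n = 3). At the other end, Kit took 0.00382% ± 0.000401 (SD, n = 3) and Fgf8 0.00262% ± 0.000775 (SD, n = 3) of counts in young oocytes.

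**Figure D1:**
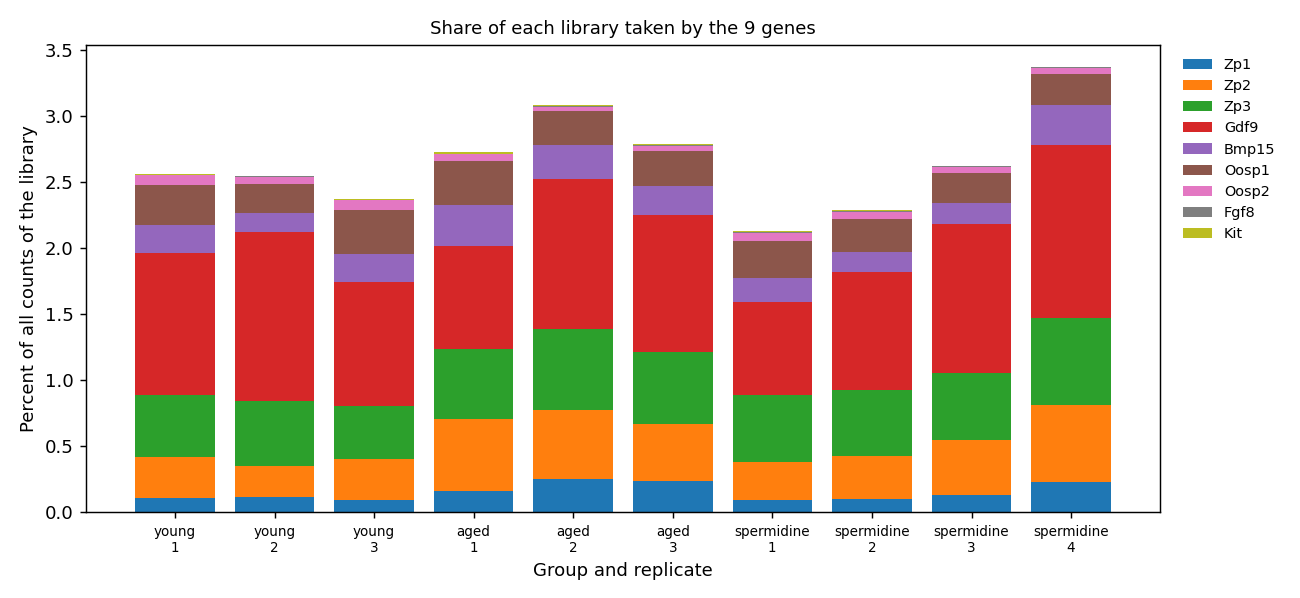
Stacked bars give the percent of all counts of each of the 10 libraries (horizontal axis: group and replicate) that each of the 9 genes took. The bars reach from 2.13% in spermidine replicate 1 to 3.37% in spermidine replicate 4, so the spermidine group holds both the lowest and the highest library.

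The 3 zona genes summed to 0.891%, 0.843% and 0.803% of counts in young replicates 1 to 3 and to 1.24%, 1.39% and 1.21% in aged replicates 1 to 3, so that every aged library lay above every young one. With spermidine the zona share was 0.887%, 0.925%, 1.06% and 1.47% in replicates 1 to 4, which spans both other groups. Gdf9 and Bmp15 together took 1.29% ± 0.133 (SD, n = 3), 1.25% ± 0.154 (SD, n = 3) and 1.21% ± 0.315 (SD, n = 4) in young, aged and spermidine oocytes, differences smaller than the spread within groups. Scaled by TMM in place of total counts, the share of all 9 genes was 2.69% in young, 2.82% in aged and 2.53% in spermidine oocytes, so that spermidine lay below young on this scale and above it on the other, and the ranges of the 3 groups overlapped on the TMM scale. In such bulk libraries fewer cells of a type and less RNA per cell cannot be told apart.

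To compare genes with one another, CPM was divided by the length of the longest protein-coding transcript of each gene in GENCODE M21. On this scale of CPM per kilobase, the mean over the 10 libraries was 5809 for Gdf9, 3964 for Zp3, 2777 for Oosp1, 1769 for Zp2, 798 for Oosp2, 789 for Zp1, 707 for Bmp15, 31.8 for Fgf8 and 10.02 for Kit. Gdf9 was above Zp3 in 10 of 10 libraries, although their ranges over libraries overlapped. Zp3 was above Oosp1, and Oosp1 above Zp2, in 9 of 10 libraries each. Oosp2, Zp1 and Bmp15 were not separated: Oosp2 exceeded Zp1 in 6 of 10 libraries and Zp1 exceeded Bmp15 in 6 of 10. Between Bmp15 and Fgf8 lay the 1 gap in the order where the ranges did not overlap, from 478 CPM per kilobase at the lowest for Bmp15 to 51.0 at the highest for Fgf8. By coding length in place of transcript length, Bmp15, whose transcript of 3060 bases holds a coding sequence of 1176 bases, moved from rank 7 to rank 5, and Oosp1 moved above Zp3.

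**Figure D2:**
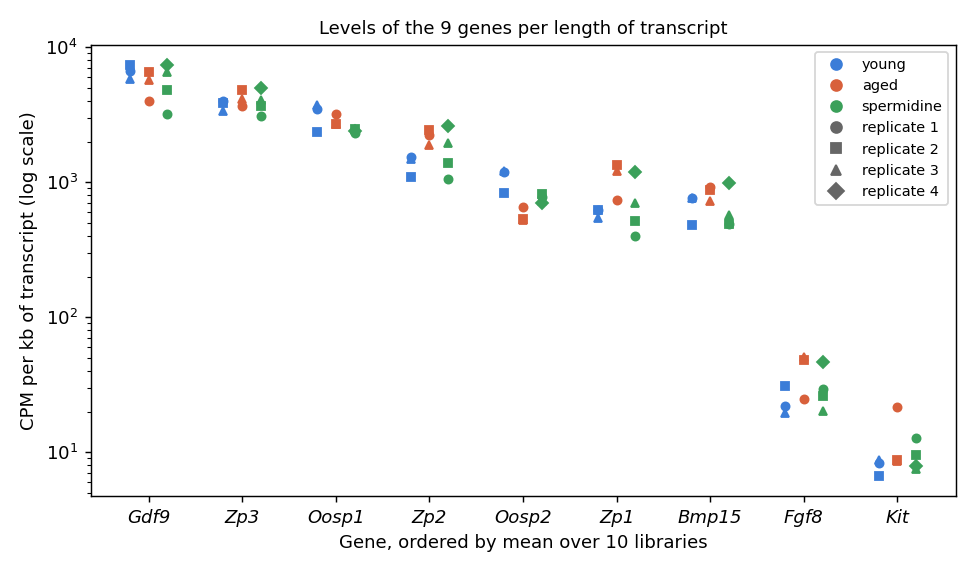
Each point is the level of 1 gene in 1 library in CPM per kilobase of transcript on a log axis, with groups by colour, replicates by marker shape and genes ordered by their mean over 10 libraries. Gdf9 is at the top with a mean of 5809, 7 genes have means from 707 upward, and Fgf8 and Kit lie far below at 31.8 and 10.02.

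Between aged and young oocytes 1 of the 9 genes passed the test, Oosp2, which fell; none rose. Over all genes, 17.8% of 12315 passed in this comparison (8.06% lower and 9.71% higher), so 1 of 9 is near the background. Passing means an adjusted p under 0.05 after Benjamini-Hochberg adjustment over every gene tested, in the quasi-likelihood test of edgeR. Of the 9 genes, 6 had a log2 fold change above 0, and their median was 0.33 against 0.10 over all genes tested. Groups did not overlap for 3 of the 9 (Zp1, Zp2 and Oosp2), where 40.0% of all genes tested did not overlap (21.1% higher and 18.8% lower).

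**Figure D3:**
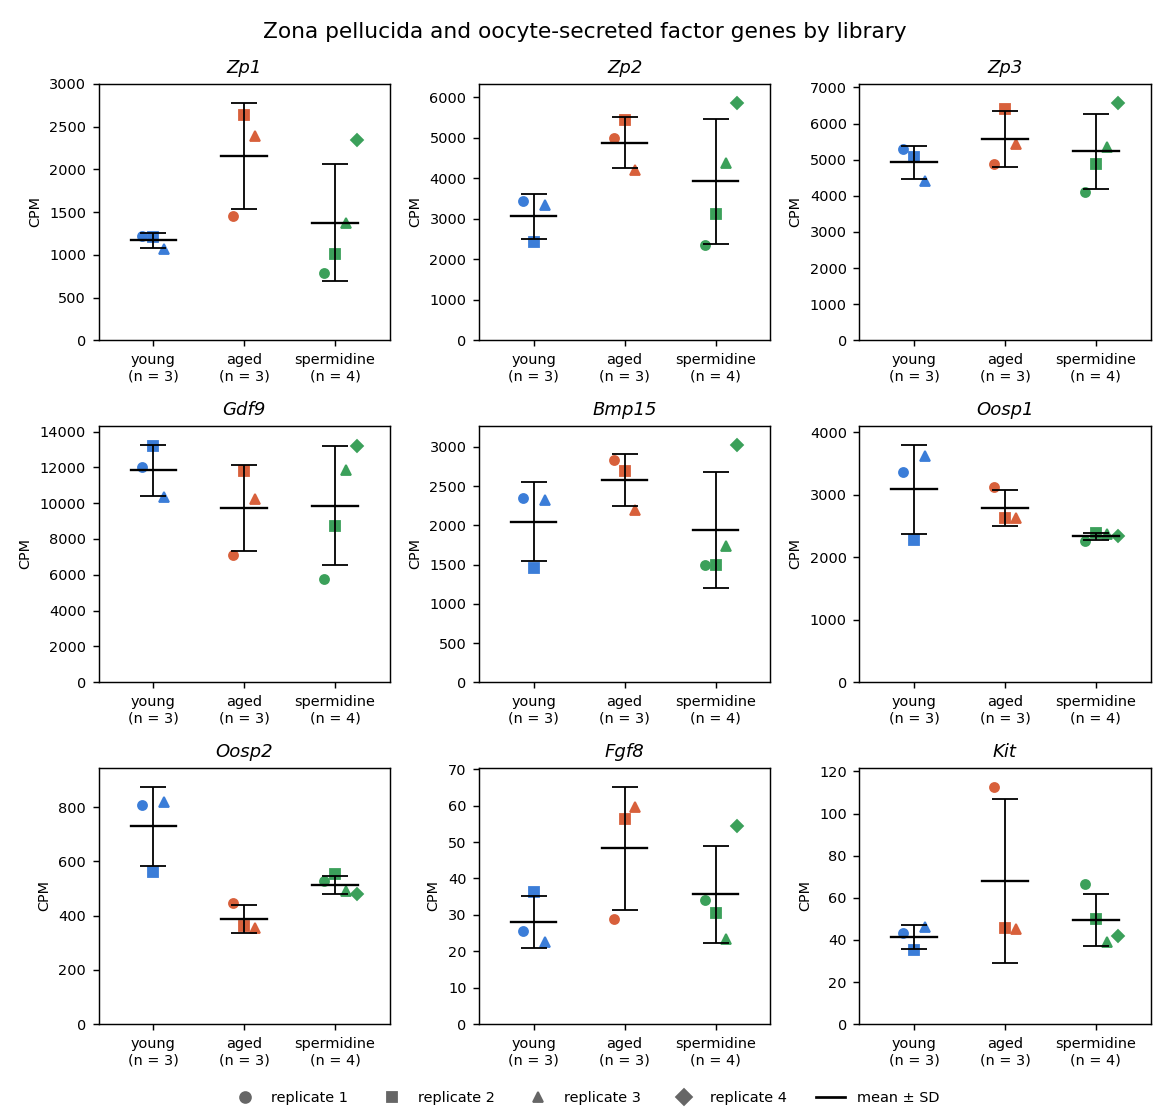
Each panel plots the CPM of 1 gene on a linear axis from 0, with 1 point per library (marker shape by replicate) and the mean ± SD of each group in black. Oosp2 is lowest in the 3 aged libraries (356 to 446 CPM), Zp1 and Zp2 are higher in all aged than in all young libraries, and Kit stands out in aged replicate 1 at 113 CPM.

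Zp1, which encodes the protein that crosslinks zona filaments, stood at 1224, 1212 and 1066 CPM in young replicates 1 to 3 and at 1458, 2635 and 2385 CPM in aged replicates 1 to 3. The groups did not overlap, and aged replicate 1 was closest to the young libraries. The log2 fold change was 0.89 (SE 0.34), a 1.85-fold difference that did not pass (edgeR adjusted p = 0.0868). Values in the spermidine libraries were 782, 1012, 1367 and 2345 CPM, which run from below the young range to within the aged range. The difference passed neither from aged (log2 fold change -0.65, SE 0.31, edgeR adjusted p = 0.225) nor from young oocytes (0.24, SE 0.32, edgeR adjusted p = 0.719). Its call depended on the fit. In the authors' deposited table the aged over young value of Zp1 was 0.85 with q = 0.00559. Here the gene passed with only young and aged libraries in the fit (edgeR adjusted p = 0.0289), and without spermidine replicate 4 it passed both as higher with age (0.0263) and as lower with spermidine than in aged oocytes (log2 fold change -1.03, edgeR adjusted p = 0.0272).

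Zp2, which encodes the zona protein cleaved after fertilization to block further sperm binding, was at 3430, 2418 and 3329 CPM in young and at 5002, 5430 and 4205 CPM in aged replicates 1 to 3. All aged libraries were above all young ones. The log2 fold change of 0.67 (SE 0.28) did not pass (edgeR adjusted p = 0.111), but did with only the 2 groups in the fit (edgeR adjusted p = 0.0397), and the authors' deposited table gives 0.63 with q = 0.0214. With spermidine the libraries were at 2341, 3119, 4376 and 5863 CPM, a range wider than both other groups together. Zp3, which encodes the main structural partner of ZP2, was at 5294, 5070 and 4422 CPM in young, 4874, 6418 and 5437 CPM in aged, and 4111, 4872, 5363 and 6581 CPM in spermidine replicates. Its groups overlapped in every comparison, with a log2 fold change of 0.18 (SE 0.18) with age (edgeR adjusted p = 0.494).

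Beside the zona genes, 3 of the 13 tested oocyte identity markers rose with age and none fell, where 9.71% of all genes tested rose and 8.06% fell. They were the germ cell helicase gene Ddx4 (log2 fold change 1.57, SE 0.25), the receptor gene Gpr3 (1.14, SE 0.24), whose product keeps the oocyte in meiotic arrest, and Nlrp5 (1.03, SE 0.29), with edgeR adjusted p = 0.00235, 0.00908 and 0.0318. Between spermidine and aged oocytes 3 were lower, Ddx4 (-1.13, SE 0.23), Gpr3 (-0.96, SE 0.22) and the RNA-binding protein gene Dazl (-0.70, SE 0.15), with edgeR adjusted p = 0.0221, 0.0325 and 0.0245. Over all genes tested, 2.44% were lower in this comparison. Both comparisons use the same aged libraries, so the rises and falls are not independent. Ddx4 was at 20.2 to 31.7 CPM in young, 58.2 to 100.4 CPM in aged and 26.6 to 46.7 CPM in spermidine libraries. The rise of Ddx4 held in 21 of 21 alternatives, and that of Nlrp5 was lost in 5 of 21, each time with 1 library left out. The count with age was 1 without young replicate 1. Between spermidine and aged oocytes it was 1 without aged replicate 3, and 0 without aged replicate 2, spermidine replicate 2 or spermidine replicate 3. All 3 of these spermidine calls were also lost with only the 2 groups in the fit. In all, that of Ddx4 was lost in 4, of Dazl in 7 and of Gpr3 in 9 of 21 alternatives. The part of these markers in the zona values was not tested.

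Ratios of counts within 1 library do not depend on how the library is scaled. The Zp1 to Zp3 ratio was 0.231, 0.239 and 0.241 in young replicates 1 to 3, a narrow band, and 0.299, 0.411 and 0.439 in aged replicates. With spermidine it was 0.190, 0.208, 0.255 and 0.356. The mean log2 ratio was 0.67 higher in aged than in young oocytes (exact two-sided permutation p = 0.1, the smallest that 3 against 3 libraries can give, and 0.274 adjusted over 12 ratio tests). Per kilobase, Zp3 made up 62.2% to 69.3% of the zona transcripts in young, 55.3% to 57.0% in aged and 56.6% to 68.2% in spermidine libraries. The Zp2 to Zp3 ratio also did not overlap between young (0.477 to 0.753) and aged libraries (0.773 to 1.03), with a log2 difference of 0.51 (exact permutation p = 0.1, adjusted 0.274).

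**Figure D4:**
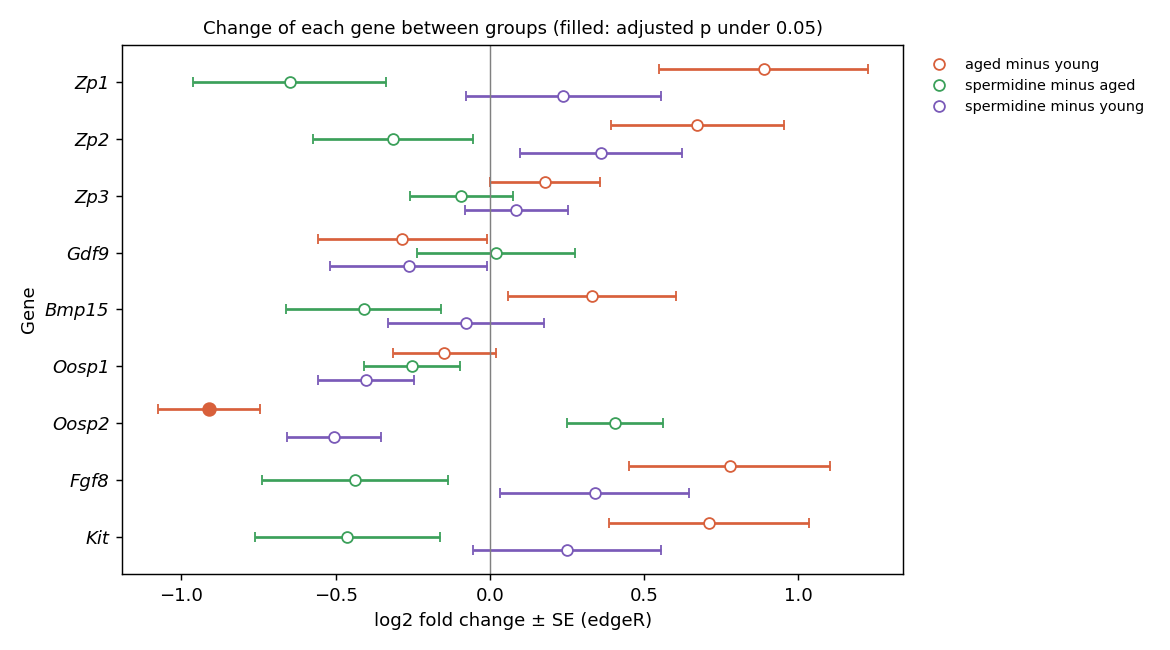
Points give the edgeR log2 fold change (horizontal axis) of each gene in the 3 comparisons with bars of 1 SE, and a filled point marks an adjusted p under 0.05. The only filled point is Oosp2 in aged minus young at -0.91, while Zp1, Zp2, Fgf8 and Kit lie between 0.67 and 0.89 with SEs of 0.28 to 0.34.

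Oosp2 stood at 807, 560 and 820 CPM in young replicates 1 to 3 and at 446, 360 and 356 CPM in aged replicates 1 to 3. The groups were apart, and young replicate 2 was the young library nearest to the aged ones. The gene fell by 0.91 on the log2 scale (SE 0.17, edgeR adjusted p = 0.00448), a level 1.88-fold lower in aged oocytes. The authors' deposited table gives -0.95 with q = 0.000267. With spermidine the 4 libraries were at 529, 554, 492 and 478 CPM, all above the aged and all below the young libraries. The steps from aged to spermidine (log2 fold change 0.41, SE 0.16, edgeR adjusted p = 0.136) and from young to spermidine (-0.51, SE 0.15, edgeR adjusted p = 0.0793) did not pass. Each pair of these 3 comparisons has 1 group in common, so the 3 values are not independent. The fall with age passed in 19 of 21 alternatives and was lost when offsets for transcript length and GC content were added (log2 fold change -0.32, edgeR adjusted p = 0.0895, and 0.102 with the replicate number as a further term). With these offsets the step from aged to spermidine also changed sign, reaching a log2 fold change of -0.11 with the further term.

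Oosp1, on the same chromosome, was at 3372, 2275 and 3619 CPM in young, 3121, 2624 and 2622 CPM in aged and 2263, 2391, 2373 and 2335 CPM in spermidine replicates. Young and aged libraries overlapped (log2 fold change -0.15, SE 0.17, edgeR adjusted p = 0.551). The spermidine libraries were the most alike of any group among the 9 genes, with a coefficient of variation of 2.42%, and lay below all aged libraries without passing (log2 fold change -0.25, SE 0.16, edgeR adjusted p = 0.346). With the length and GC offsets Oosp1 passed as lower with spermidine than in aged oocytes (log2 fold change -0.63, edgeR adjusted p = 0.0195), and its difference with age changed sign to 0.35 (edgeR adjusted p = 0.117).

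The Oosp2 to Oosp1 ratio was 0.239, 0.246 and 0.227 in young replicates 1 to 3, and 0.143, 0.137 and 0.136 in aged replicates 1 to 3. With spermidine it was 0.234, 0.232, 0.207 and 0.205, so that all 4 libraries lay above the aged and 2 lay within the young range. In log2 units the ratio was 0.77 lower in aged than in young oocytes (exact two-sided permutation p = 0.1, the smallest possible), with SDs of 0.0389 in aged and 0.0606 in young libraries (n = 3 each). It was 0.66 higher with spermidine than in aged oocytes (exact permutation p = 0.0286, the smallest that 4 against 3 can give), and 0.12 lower with spermidine than in young ones (exact permutation p = 0.171). None of the 12 ratio tests passed after adjustment, and the adjusted p was 0.274 for the first of these differences, 0.274 for the second and 0.343 for the third. Leaving out any 1 library moved the aged minus young difference only between -0.81 and -0.75. The transcripts taken for the 2 genes have GC contents of 42.1% and 42.0% and lengths of 677 and 972 bases for Oosp2 and Oosp1.

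**Figure D5:**
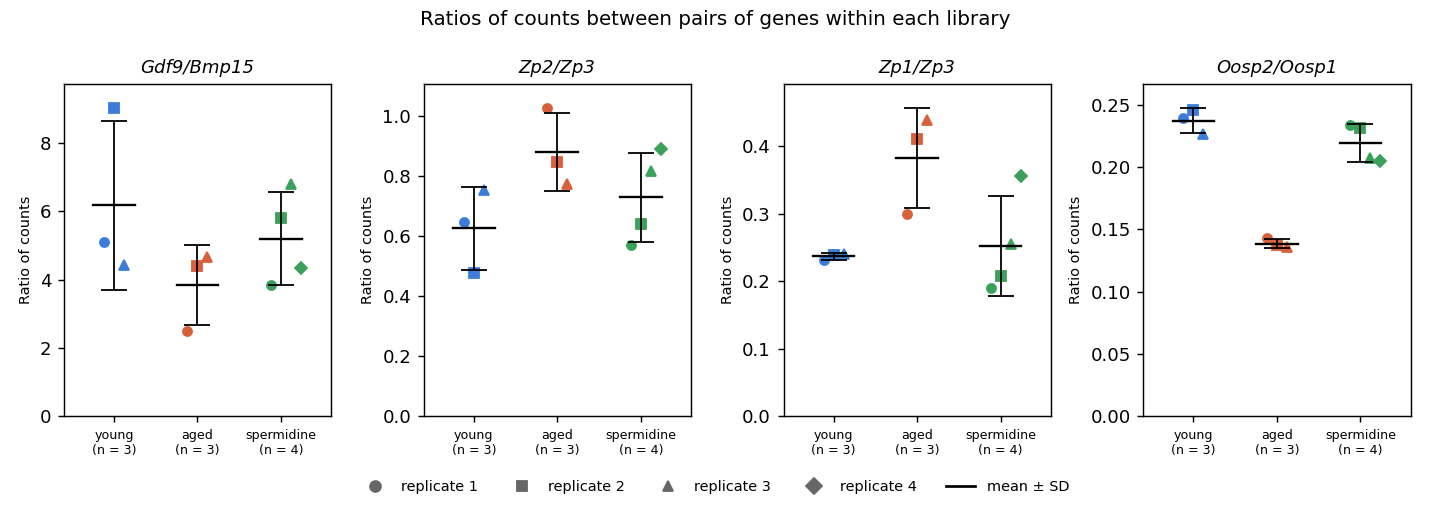
The 4 panels show the ratio of counts of 1 gene to another within each library on a linear axis from 0, with points by replicate and mean ± SD in black. For Oosp2/Oosp1 the aged libraries sit at 0.136 to 0.143, below the young (0.227 to 0.246) and the spermidine libraries (0.205 to 0.234), whereas for Gdf9/Bmp15 all groups overlap.

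Gdf9 was at 11993, 13184 and 10341 CPM in young replicates 1 to 3, 7114, 11814 and 10249 CPM in aged replicates and 5745, 8697, 11832 and 13192 CPM in spermidine replicates. Aged replicate 1 and spermidine replicate 1 were the low libraries of their groups, and all groups overlapped. No difference passed (log2 fold change -0.28, SE 0.27, edgeR adjusted p = 0.478 for aged minus young). Bmp15, its partner in heterodimers, was at 2353, 1462 and 2327 CPM in young, 2838, 2689 and 2201 CPM in aged and 1494, 1499, 1737 and 3030 CPM in spermidine replicates. Here young replicate 2 was the low and spermidine replicate 4 the high library. The log2 fold change with age was 0.33 (SE 0.27, edgeR adjusted p = 0.40). Without spermidine replicate 4, Bmp15 passed as lower with spermidine than in aged oocytes (log2 fold change -0.71, edgeR adjusted p = 0.0433, against -0.41, SE 0.25 and 0.344 with it). The 2 genes did not vary as a fixed pair: the Gdf9 to Bmp15 ratio ran from 4.44 to 9.02 in young, 2.51 to 4.66 in aged and 3.85 to 6.81 in spermidine libraries. Its log2 difference between aged and young was -0.66 (exact permutation p = 0.2, adjusted 0.343).

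Fgf8 was low in every library, at 25.7, 36.2 and 22.6 CPM in young, 28.9, 56.4 and 59.6 CPM in aged and 34.2, 30.4, 23.5 and 54.5 CPM in spermidine replicates. Aged replicate 1 fell inside the young range, while the other 2 aged libraries and spermidine replicate 4 were the 3 highest. The log2 fold change with age was 0.78 (SE 0.33, edgeR adjusted p = 0.114), and 1.00 without aged replicate 1, where it passed (edgeR adjusted p = 0.0347). Its counts ran from 508 to 1624 per library.

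Kit was at 43.3, 35.1 and 46.1 CPM in young, 113, 45.7 and 45.1 CPM in aged and 66.5, 49.7, 39.1 and 41.7 CPM in spermidine replicates. Its difference with age (log2 fold change 0.71, SE 0.33, edgeR adjusted p = 0.142) rested on aged replicate 1, and without that library it was 0.09 (SE 0.21, edgeR adjusted p = 0.810). The transcript taken for Kit, of 5241 bases, is the longest of the 9. The high libraries of Kit, aged replicate 1 and spermidine replicate 1, are those with the strongest positive trend with transcript length. With the length and GC offsets the difference of Kit with age was 0.44 (SE 0.24, edgeR adjusted p = 0.228), against 0.71 without them. The part of transcript length in the Kit values was not tested.

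Between spermidine and aged oocytes 0 of the 9 genes passed by edgeR, where 4.86% of all genes tested did (2.42% higher and 2.44% lower). Between spermidine and young oocytes 0 passed, where 5.36% of all genes did (3.44% higher and 1.92% lower). DESeq2 called 0 in the first and 1, Oosp2, in the second. At an unadjusted p under 0.05, 1 gene (Oosp2) differed from aged and 2 (Oosp1 and Oosp2) from young oocytes. The median log2 fold change of the 9 was -0.31 from aged to spermidine against -0.03 over all genes, with 2 of 9 above 0. Oosp1 and Oosp2 were the 2 genes whose libraries did not overlap between spermidine and aged oocytes, where 19.9% of all genes tested did not overlap (11.4% higher and 8.49% lower). Against young oocytes that held for Oosp2 alone, with 21.0% over all genes (12.1% higher and 8.92% lower). For 7 of the 9 genes (all but the 2 Oosp genes) the spermidine libraries were wider apart, by coefficient of variation, than the young libraries. The share of all genes for which this held was not counted. Across genes, pairs of spermidine libraries differed by a mean chi-square per gene of 32.7 to 125.3, and pairs of young libraries by 9.99 to 46.6.

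Genes known to act with these 9 were grouped in lists by function. In the list of zona processing and the block to sperm, Fetub, which encodes the inhibitor fetuin-B that keeps the zona from hardening early, was at 78 to 91 CPM in young, 34 to 42 CPM in aged and 40 to 54 CPM in spermidine libraries. It fell with age (log2 fold change -1.13, SE 0.16, edgeR adjusted p = 0.00102) and was also lower with spermidine than in young oocytes (-0.92, SE 0.14, edgeR adjusted p = 0.00276). Furin, a proprotein convertase gene, rose from a low level (0.76, SE 0.24, edgeR adjusted p = 0.0496), a call lost in 16 of 20 alternatives. These were the 2 of 6 tested genes that passed with age, where 17.8% of all genes tested passed (9.71% higher and 8.06% lower). Of 11 tested transcription factors, Sohlh2 rose with age (1.23, SE 0.31, edgeR adjusted p = 0.0197) and Figla fell (-0.56, SE 0.15, edgeR adjusted p = 0.0272), the latter lost in 7 of 21 alternatives. These 2 of 11 are near the 17.8% over all genes. In this list 9 of the 11 had a log2 fold change above 0 with age, and the median was 0.70 against 0.10 over all genes. Figla, whose product acts on zona promoters, was at 24.7, 22.0 and 27.5 CPM in young and 15.7, 18.7 and 15.9 CPM in aged replicates. With spermidine it was at 22.1 to 27.1 CPM, above all aged libraries, without passing (0.53, SE 0.14, edgeR adjusted p = 0.0556). Tbpl2, the oocyte form of the TATA-binding protein, was higher with spermidine than in aged oocytes (0.84, SE 0.17, edgeR adjusted p = 0.0225, lost in 7 of 21 alternatives). The 2 calls of this list with age became 0 without young replicate 1 or young replicate 3, and 5 without aged replicate 1.

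Of 20 tested BMP and activin receptors and SMADs, 0 passed in any of the 3 comparisons, with 2 genes (Acvr1 and Tgfbr1) at an unadjusted p under 0.05 between aged and young oocytes, 1 in each of the others and 0 called by DESeq2. Over all genes tested, 17.8% passed with age, 4.86% between spermidine and aged and 5.36% between spermidine and young oocytes. With age 17 of the 20 had a log2 fold change above 0, and their median was 0.32 against 0.10 over all genes. Without young replicate 2, 1 gene passed with age. Of 14 tested FGF receptors and feedback genes, Fgfr1 rose with age from 1.64 to 2.84 CPM (0.79, SE 0.25, edgeR adjusted p = 0.0493, lost in 18 of 20 alternatives). No other gene of this list passed with age, where 17.8% of all genes did. In this list 11 of the 14 had a log2 fold change above 0 with age, with a median of 0.24 against 0.10. In the KIT, PI3K and FOXO3 list, 6 of 22 tested genes rose and 1 fell with age, and 0 passed in the comparisons of spermidine with aged or young oocytes, where 4.86% and 5.36% of all genes did. In these 2 comparisons 6 and 3 genes had an unadjusted edgeR p under 0.05, and DESeq2 called 2 and 0. With age, the kinase gene Akt1 (0.87, SE 0.23), the adaptor gene Sh2b3 (0.99, SE 0.24) and the PI3K regulatory subunit gene Pik3r2 (1.74, SE 0.47) rose (edgeR adjusted p = 0.0249, 0.0163 and 0.0250), and the mTOR activator gene Rheb fell (-0.65, SE 0.13, edgeR adjusted p = 0.00785). Pik3r2 stood at under 1.33 CPM in every library. The median of this list was 0.45 against 0.10 over all genes with age, where 9.71% of all genes rose. The number of genes called in this list with age, 7 in all, was 1 without young replicate 1 or young replicate 3. It was 4 without young replicate 2, aged replicate 1, aged replicate 3 or spermidine replicate 2, and 2 with the length and GC offsets. The calls of Akt1, Pik3r2 and Sh2b3 were lost with these offsets and in 6, 7 and 4 of 20 alternatives in all, and that of Rheb held in 21 of 21.

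Among 12 tested other secreted factors, Jag1, which encodes the Notch ligand that the oocyte presents to granulosa cells, changed in all 3 comparisons. It was at 447, 395 and 465 CPM in young, 306, 228 and 228 CPM in aged and 194, 164, 157 and 133 CPM in spermidine replicates, with no overlap between any 2 groups. It fell with age (-0.78, SE 0.17, edgeR adjusted p = 0.0101), was lower again with spermidine than in aged oocytes (-0.65, SE 0.16, edgeR adjusted p = 0.0387) and was lower with spermidine than in young oocytes (-1.43, SE 0.16, edgeR adjusted p = 0.000258). The first of these calls was lost with total count scaling (edgeR adjusted p = 0.0706), the second in 9 of 21 alternatives and the third in none of 21. Rspo2, an oocyte-secreted activator of Wnt signalling, was lower with spermidine than in aged oocytes (-0.61, SE 0.16, edgeR adjusted p = 0.0459, lost in 13 of 21 alternatives). Bmp7 was higher in aged (2.14, SE 0.30) and spermidine (1.81, SE 0.29) than in young oocytes (edgeR adjusted p = 0.00114 and 0.00318) at levels of at most 1.84 CPM.

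Genes with the profile most like each of the 9 were sought over the 10 libraries among tested genes whose mean was 20 CPM or more, by Pearson correlation of log2 CPM. The 10 points share 3 groups and the library trends given above. The closest to Kit were Cnot1 (r = 0.994) and Pld1 (r = 0.990), which were likewise highest in aged replicate 1, at 94.7 and 283 CPM. Those closest to Oosp2 were the cytosolic ribosomal protein gene Rpl31 (r = 0.981) and the mitochondrial one Mrpl32 (r = 0.979). Zp1 was most like Aldoa (r = 0.980) and Strada (r = 0.974), and Zp2 most like the maternal-effect gene Nlrp5 (r = 0.975). Gdf9 was nearest to Mtfr1l (r = 0.974) and Fgf8 to 1700067K01Rik (r = 0.982). Within the 9, Zp1 and Zp3 were the pair most alike (r = 0.887), followed by Zp2 and Bmp15 (r = 0.836), and Gdf9 and Kit were the most opposed (r = -0.805).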

How the data were processed

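The sources give 10 libraries of mouse oocytes made by oligo dT priming and SMART-seq2 amplification, per the labels' protocols. The authors deposited 1 table with an estimated count of reads per gene, not scaled, in which the file headers say read count, together with log2 fold changes and p-values and q-values of their own comparisons. RSEM 1.3.1 and Bowtie2 2.3.4.3, the build mm9 and DESeq2 1.4.5 are listed, without role or order, in the submitters' processing notes. Of the values, 15.9% to 16.7% per library were not whole, and all were rounded here.

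Counts were fitted with edgeR 4.0.16 (quasi-likelihood test, robust, TMM scaling, R 4.3.3) over all 10 libraries without covariates. Genes that filterByExpr kept were tested, 12315 of 18493, with Benjamini-Hochberg adjustment over all of them and a threshold of 0.05. CPM are counts scaled to a common library size with TMM factors. Ratios of counts were compared with exact two-sided permutation tests over libraries, 12 in all. The fit was also run on simulated counts without trends in length or GC content, and no result here rests on that run. DESeq2 1.42.0, other scalings and filters, a replicate term, length and GC offsets and leaving out libraries served as alternatives.

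The 9 genes and all lists were chosen with earlier results of these data known. Besides the 9, the text names from each list at most 4 genes with the smallest p among those that passed. From the granulosa and cumulus list it also names Cyp19a1, Foxl2, Amh, Has2 and Ptx3, which did not pass. For Kit, Oosp2, Zp1, Zp2, Gdf9 and Fgf8 it names the closest genes by correlation among those with a mean of at least 20 CPM. Acvr1, Tgfbr1, Gja1, Hsd17b1, Kitl and Inha were added after values were seen. Lengths come from GENCODE M21 transcripts, which differ from the build mm9 in the notes.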

Additional observations from a re-analysis of the deposited data

Results flagged for a closer look

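Bmp15 in spermidine replicate 4 stood at 3030 CPM, while the other 3 spermidine libraries lay between 1494 and 1737 CPM. The gap to the nearest library, set against the whole range of the group, passed Dixon's critical value. This check was run on 18 sets of 4 spermidine libraries, the levels of the 9 genes, 4 ratios and 5 summed shares, and 1 stood out, where chance gives about 1 in 20. The same library had the highest Zp1, Zp2, Zp3 and Gdf9 levels of its group.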

How the results depend on the processing

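As reported, the test called 1 of the 9 genes with age and 0 in the other comparisons. With age the count was 3 with total count scaling, 3 with only the compared groups in the fit, 2 without aged replicate 1 and spermidine replicate 1, 0 with length and GC offsets, and 1 to 2 when 1 library was left out. Between spermidine and aged oocytes it was 1 with length and GC offsets and 0 to 2 with 1 library left out. Against young oocytes it was 1 with DESeq2 and 0 to 2 with 1 library left out.

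Over all genes, the 2189 calls with age became 1179 with a filter of 10 CPM in 3 libraries and 827 to 2362 with 1 library left out, and 2570 without aged replicate 1 and spermidine replicate 1. Between spermidine and aged oocytes, 598 became 259 with total count scaling, 1366 with DESeq2, 124 with only the 2 groups and 99 to 1127 with 1 library left out. Between spermidine and young oocytes, 660 became 273 with the strict filter, 1099 with DESeq2 and 283 to 874 with 1 library left out. Total count scaling moved the median over all genes with age from 0.10 to 0.24, and the share of calls that were higher from 54.6% to 75.3%. Against young oocytes that share went from 64.2% to 82.8%, and to 52.7% with DESeq2. The share of the 9 genes by scaled library size was 2.69% in young, 2.82% in aged and 2.53% in spermidine oocytes.

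The labels name no pairing of samples. Between groups, correlations of deviations at the same replicate number ran from -0.261 to 0.377, highest for aged with spermidine replicate 1. Whether the numbers mark a pairing was not tested. With the replicate block 2 of the 9 genes were called with age and 2 between spermidine and aged oocytes, and 998 over all genes in the latter. With block and offsets these counts were 3, 4 and 1178.

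Signs that reversed belonged to differences that had not passed. With age, Oosp1 was 0.0080 with total count scaling and 0.35 with offsets, with or without the block. Between spermidine and aged oocytes, Gdf9 was -0.16 with the block and -0.086 with block and offsets, and Oosp2 was -0.047 with offsets and -0.11 with the block added. Leaving out 1 library, or aged replicate 1 and spermidine replicate 1 together, gave -0.16 to 0.21 for Gdf9, -0.22 to 0.018 for Zp3 and -0.69 to 0.12 for Kit. Between spermidine and young oocytes, Bmp15 was 0.094 with total count scaling, Zp1 -0.19 with the block and -0.13 with block and offsets, Zp3 -0.050 and -0.025, and Fgf8 -0.047 with block and offsets. The same omissions gave -0.15 to 0.41 for Zp1, -0.043 to 0.16 for Zp3 and -0.38 to 0.0037 for Bmp15, and for the log2 ratios -0.42 to 0.092 for Gdf9/Bmp15 and -0.13 to 0.17 for Zp1/Zp3. The causes were not tested.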
